A study of Mus musculus with 6 samples.

Results

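Glutathione is the main small thiol of animal cells, and 10 genes for its synthesis, recycling and use were followed here in mouse bone marrow-derived macrophages. The genes were taken by symbol from the 34745 rows of the count table. They were Slc7a11, Gclc, Gclm, Gss, Gsr, Gpx1, Gpx4, Gstm1, Mgst1 and Gsto1. All 10 were found once, and all 10 passed the filter on low counts that left 13815 genes for testing.

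The study measured mRNA in wild-type (WT) macrophages, grown from bone marrow cells in medium with the growth factor M-CSF at 20 ng/ml. All cells were stimulated for 6 h with R848 at 100 ng/ml, a small-molecule agonist of the endosomal receptor TLR7. Cells of 3 libraries had been pretreated with DMSO, the solvent control, and cells of 3 with an inhibitor of KAT8, a lysine acetyltransferase that acts mainly on histone H4. The labels give neither the name and dose of the inhibitor nor the age and number of mice, and every sample had R848, so each difference below is one between stimulated cultures.

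Cells make glutathione from cystine and glutamate. Slc7a11 encodes the transport chain of the cystine-glutamate exchanger, and Gclc and Gclm encode the catalytic and modifier subunits of glutamate-cysteine ligase, the rate-limiting enzyme. Gss encodes glutathione synthetase, which adds glycine, and Gsr the reductase that turns oxidised glutathione back into the thiol with NADPH. Peroxidases such as GPX1 and GPX4 spend glutathione on hydrogen peroxide and lipid peroxides, and transferases such as GSTM1, MGST1 and GSTO1 use it on electrophiles or in thiol exchange. Several of these genes are textbook targets of the transcription factor NRF2, and macrophages draw on the pathway when they make oxidants after Toll-like receptor stimulation.

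The NRF2 factor binds, with small MAF proteins, the antioxidant response element, whose core reads TGACNNNGC. RefSeq promoter windows (GRCm38.p6, 250 bases before to 50 after a gene's start) were matched by symbol for 8 of the 10 genes, Gclc and Gsr having no entry. Searched on both strands, the core was found in the windows of 2 of the 8, Gclm and Mgst1. That was 15.4% of their 13 windows, against 12.4% of all 32851 windows of this length. The AP-1 sequence TGACTCA, which can overlap the core, was in none of the 13 windows and in 5.2% of all. Stretches of 61 bases around the core are shown for these 2 genes and for the transferase gene Gsta3. In the wider pathway list described further on, Gsta3 had the largest rise among genes reaching 5 CPM. Of the 72 windows of that list, 18.1% held the core and 8.33% held TGACTCA. Abcc3 and Dpep2, which also changed by at least 1 on the log2 scale and reached 5 CPM, had no entry. The core was in windows of 10 genes of the wider list, and not all of them rose. Gstm5 and Hagh, for instance, had the core and did not pass. Gss and Gstm1, which rose most of the 10 glutathione genes, had windows without it. Capitals mark the core. Each stretch is written 5′ to 3′ on the strand on which the core reads TGAC, which is the minus strand for Gclm and Mgst1 and the plus strand for Gsta3, all of them plus-strand genes.
Gclm, chr3:122245397-122245457: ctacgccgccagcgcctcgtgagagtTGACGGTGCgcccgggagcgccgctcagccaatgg
Mgst1, chr6:138140445-138140505: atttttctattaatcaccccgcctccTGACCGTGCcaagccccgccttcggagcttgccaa
Gsta3, chr1:21240438-21240498: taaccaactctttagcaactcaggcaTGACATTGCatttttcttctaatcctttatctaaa
The core ends 125 bases before the RefSeq start of Gclm, 47 before 1 of the 2 starts of Mgst1 and 112 before that of Gsta3. The Mgst1 stretch lies inside the gene span given further on, since GENCODE M21 begins the gene farther upstream. A match describes letters only, since binding was not measured in these samples.

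Library totals ranged from 18441352 to 25089320 counts. Levels are given as CPM, counts scaled to library size and by TMM. Macrophage markers were abundant in all libraries, their 10 genes summing to 27365 to 30686 CPM with DMSO and 24146 to 24534 with the inhibitor. Most of the sums came from Ctsd (means 16170.5 CPM with DMSO and 16458.7 with the inhibitor) and Lyz2 (8596 and 4190). Of the 10 genes 6 fell, Lyz2 among them, while Csf1r, Cd68, Spi1 and Ctsd did not pass. Among all 13815 tested genes 26.5% fell. Stromal markers were present as well. The summed level of 10 was 6025 to 6849 CPM with DMSO and 2422 to 2594 CPM with the inhibitor. Of these 10 genes 9 fell, beside the same 26.5% of all tested genes. Markers of neutrophils, T and NK cells, B cells, dendritic cells, mast cells and erythroid cells summed to at most 20.5 CPM per list in any library, with Ly6g, Elane, Cd3d, Cd8a, Siglech and Fcer1a at 0 throughout. The stromal difference accompanies every result below, and its part in them was not tested. In such bulk samples, fewer cells of a type and less RNA per cell cannot be told apart.

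With the inhibitor, 7 of the 10 glutathione genes rose and none fell. These were all 4 genes of cystine import and synthesis, the reductase Gsr, and the transferases Gstm1 and Mgst1. The peroxidases Gpx1 and Gpx4 and the transferase Gsto1 did not pass. Of all 13815 genes tested, 51.5% were called by the same rule, 24.9% higher and 26.5% lower. A call needed an adjusted p under 0.05 in the edgeR quasi-likelihood fit, with Benjamini-Hochberg correction across every tested gene. The median log2 fold change was 0.56 over the 10 genes and 0.01 over all tested genes. Because the 10 genes were chosen with earlier results of these data known, these contrasts with all genes are a description only. Whether the pathway differs from other genes was not tested. In the same 7 genes all inhibitor libraries lay above all DMSO libraries, which held for 30.3% of all tested genes. Groups were apart in either direction for 60.6%.

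**Figure D1:**
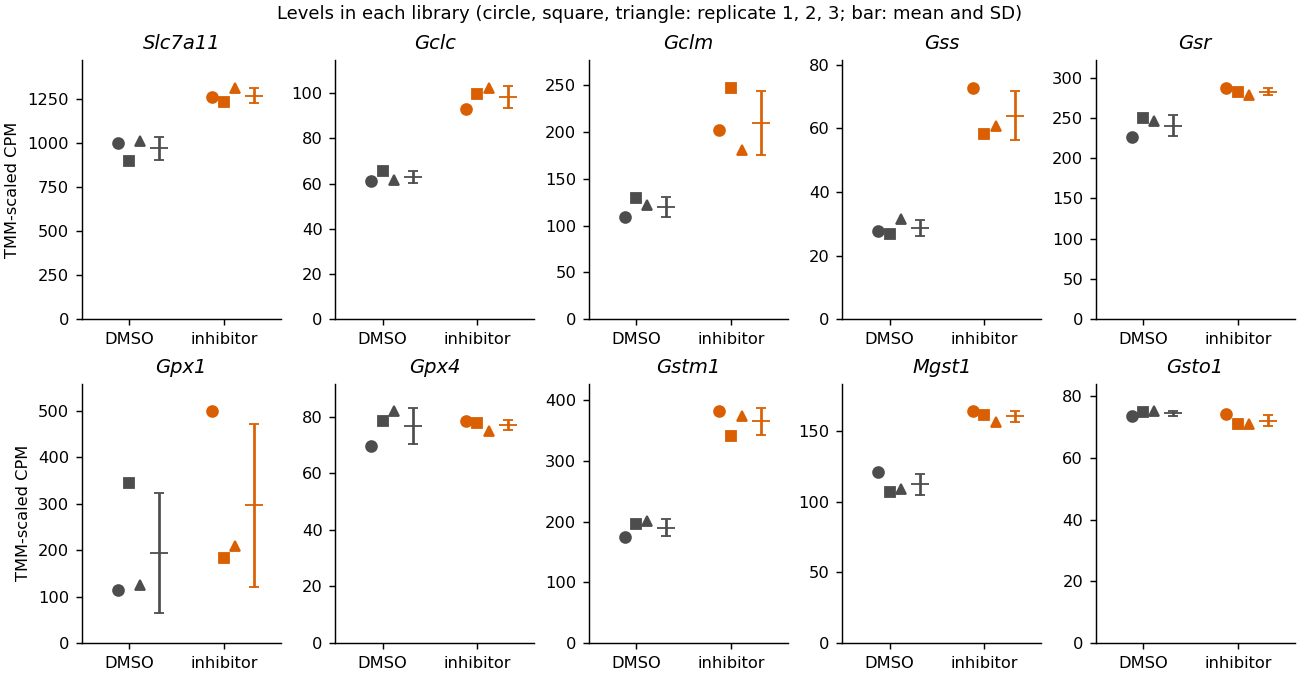
TMM-scaled CPM of the 10 glutathione genes (vertical axes, from 0, scaled separately for each gene) in the 3 DMSO and 3 inhibitor libraries; symbols mark the replicate number and bars the mean and SD of each group. The groups are apart for 7 genes and overlap for Gpx1, Gpx4 and Gsto1, and Gpx1 has 1 high library in each group.

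The largest rise was that of Gss, glutathione synthetase (ENSMUSG00000027610, mm10 chromosome 2, 155563181 to 155592810, minus strand). Its level was 27.7, 26.7 and 31.5 CPM in the DMSO libraries and 72.8, 58.4 and 60.8 CPM in the inhibitor libraries. The groups were far apart, with inhibitor replicate 1 the highest. The rise was 2.23-fold (log2 fold change 1.16, SE 0.10, edgeR adjusted p = 3.69e-05). Exons of Gss overlap, on the opposite strand, those of Acss2 over 6.68% of their length and those of 2 antisense genes, and whether strand was used in counting is not known. Acss2 fell by 0.50 on the log2 scale (adjusted p = 0.00228), and the antisense genes Gssos1 and Gssos2 had at most 10 counts in any library.

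Both subunits of glutamate-cysteine ligase rose. Gclc, the catalytic subunit (ENSMUSG00000032350, chromosome 9, 77754535 to 77794485, plus strand), stood at 61.0, 65.8 and 61.8 CPM with DMSO and 92.8, 99.6 and 102 CPM with the inhibitor. All 3 inhibitor libraries were higher, by more than the spread within either group, and the rise was 1.56-fold (log2 fold change 0.64, SE 0.054, adjusted p = 3.39e-05). Gclm, the modifier subunit whose promoter stretch is shown above (ENSMUSG00000028124, chromosome 3, 122245557 to 122270732, plus strand), stood at 109, 129.7 and 122 CPM with DMSO. With the inhibitor it was at 202, 247 and 180.3 CPM. Its groups did not overlap, but the inhibitor libraries were more scattered (SD 34.0 against 10.5 CPM). The rise was 1.74-fold (log2 fold change 0.80, SE 0.11, adjusted p = 0.000572).

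The balance of the 2 subunits was compared within libraries, where the ratio of 2 genes does not depend on scaling. Per kilobase (kb) of exon, the ratio of Gclm to Gclc was 1.07, 1.18 and 1.18 in control libraries and 1.3, 1.48 and 1.05 under the inhibitor. The ranges overlapped, and the mean log2 ratio differed by 0.15 (two-sided exact permutation test, p = 0.5, adjusted over 4 such ratios p = 0.5). With 3 libraries against 3 this exact permutation test cannot go below p = 0.1.

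Slc7a11, the cystine importer (ENSMUSG00000027737, chromosome 3, 49892526 to 50443614, minus strand), had the highest counts of the 10 genes. Its level was 999, 897 and 1012 CPM with DMSO and 1262, 1235 and 1314 CPM with the inhibitor. The lowest inhibitor library was above the highest DMSO library, and the rise was 1.31-fold (log2 fold change 0.39, SE 0.056, adjusted p = 0.000607). The ratio of Slc7a11 to Gclc per kb was 4.43, 3.69 and 4.43 with DMSO. It was 3.68, 3.35 and 3.47 with the inhibitor, without overlap. The mean log2 ratio was lower by 0.25 (exact permutation p = 0.1, the smallest possible, adjusted p = 0.2), so this difference did not pass.

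Gsr, glutathione reductase (ENSMUSG00000031584, chromosome 8, 33652523 to 33698163, plus strand), made the smallest rise among the genes that passed. It stood at 226, 249.6 and 245 CPM with DMSO and 287, 282 and 278 CPM with the inhibitor. The groups did not overlap, the inhibitor libraries lying close together (SD 4.41 CPM). The rise was 1.18-fold (log2 fold change 0.23, SE 0.048, adjusted p = 0.00398).

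**Figure D2:**
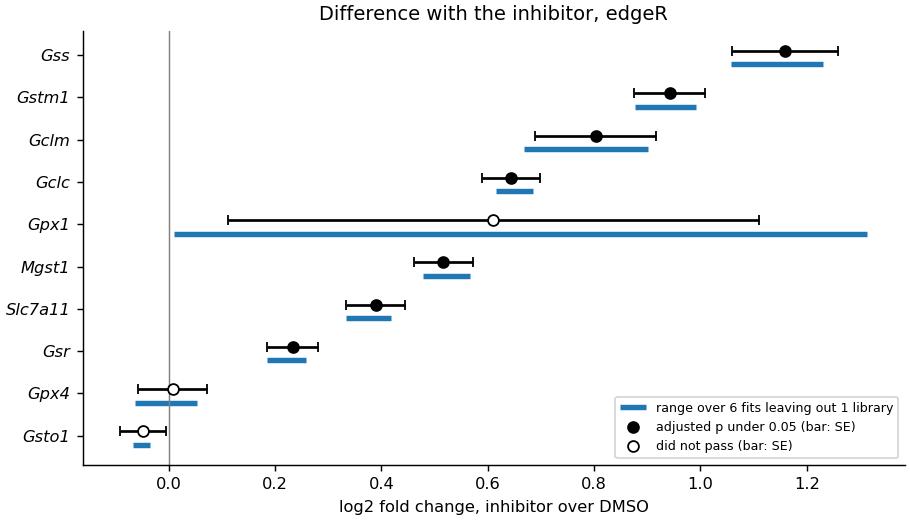
Log2 fold change of each glutathione gene, inhibitor over DMSO (horizontal axis), with its SE; filled points passed at an adjusted p under 0.05, and blue bars span the values when 1 library at a time is left out. Gss stands highest at 1.16 and Gsr lowest of the filled points at 0.23, while the blue bar of Gpx1 runs from 0.01 to 1.31.

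The peroxidases did not pass. Gpx4 encodes the selenoenzyme that reduces lipid peroxides in membranes (ENSMUSG00000075706, chromosome 10, 80047166 to 80056439, plus strand). It stood at 69.4, 78.6 and 81.8 CPM with DMSO and 78.3, 77.8 and 75.1 CPM with the inhibitor. The inhibitor libraries lay inside the range of the DMSO libraries, and the log2 fold change was 0.01 (SE 0.064, adjusted p = 0.933). Of the 50-base words of Gpx4 transcripts, 34.7% also occur in transcripts of other genes, chiefly the pseudogene Gpx4-ps2, so its count depends on how shared reads were treated.

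Gpx1, the cytosolic selenoperoxidase of hydrogen peroxide (ENSMUSG00000063856, chromosome 9, 108338903 to 108340343, plus strand), varied within groups more than between them. Its level was 114, 344 and 124 CPM with DMSO and 498, 182 and 208 CPM with the inhibitor. DMSO replicate 2 and inhibitor replicate 1 stood at more than the others of their group, and the groups overlapped. The log2 fold change was 0.61 with an SE of 0.50 (adjusted p = 0.335). Without DMSO replicate 2 it was 1.31 (adjusted p = 0.0382) and passed, and without inhibitor replicate 1 it was 0.01 (adjusted p = 0.987).

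The within-group SD of Gpx1 was 0.84 on the log2 scale. The median of the 4228 tested genes at 50 CPM or more was 0.063, and only 5 of these genes had a larger SD than Gpx1. Its counts ran from 2058 to 12939, and the cause of the spread was not tested. The nearest protein-coding genes on either side varied less within groups. Rhoa, a small GTPase just upstream, ran from 576 to 623 CPM with DMSO and 476 to 488 CPM with the inhibitor, and it fell by 0.30 on the log2 scale (edgeR adjusted p = 0.000713). Usp4, a deubiquitinase just downstream, ran from 115 to 129.8 CPM in all 6 libraries and did not pass (adjusted p = 0.449). None of the 50-base words of Gpx1 transcripts occurs in another gene of the annotation used here. These 2 neighbours were chosen after the values of Gpx1 were seen. The ratio of Gpx4 to Gpx1 per kb followed Gpx1, from 0.13 to 0.55, and did not differ between groups beyond their spread (exact permutation p = 0.5, adjusted p = 0.5).

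**Figure D3:**
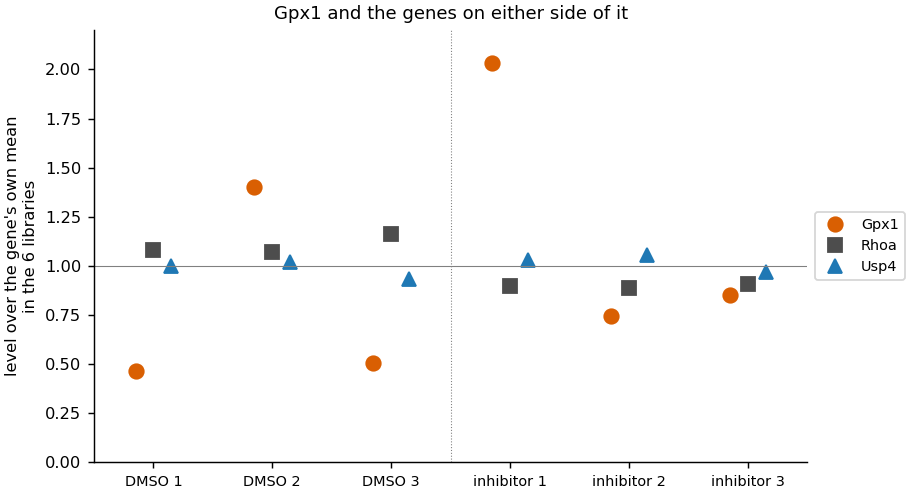
Level of Gpx1 and of its nearest protein-coding neighbours Rhoa and Usp4 in each library, divided by each gene's own mean over the 6 libraries (vertical axis). Gpx1 runs from 0.46 to 2.03 with 1 high library per group, Usp4 stays between 0.93 and 1.05, and Rhoa, between 0.88 and 1.16, is lower in all inhibitor libraries.

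Among the transferases, Gstm1, a cytosolic mu-class enzyme (ENSMUSG00000058135, chromosome 3, 108012255 to 108017973, minus strand), rose most. It stood at 174, 196 and 201 CPM with DMSO and 382, 341 and 374 CPM with the inhibitor. The groups were far apart, and the rise was 1.92-fold (log2 fold change 0.94, SE 0.067, adjusted p = 1.31e-05). Mu-class genes are close copies, and 18.9% of the 50-base words of Gstm1 transcripts occur in other genes, foremost the pseudogene Gstm2-ps1. That pseudogene was listed at 13.1 to 16.0 CPM with DMSO and 30.6 to 33.5 CPM with the inhibitor (log2 fold change 1.09, adjusted p = 3e-05). Gstm2, another mu-class gene, was at 26.4 to 29.9 CPM with DMSO and 28.6 to 30.0 CPM with the inhibitor (log2 fold change 0.03, adjusted p = 0.706). Other mu-class genes differed in this respect. Gstm4 rose by 0.57 on the log2 scale (adjusted p = 0.00147). Gstm3, which also shares words with Gstm1, and Gstm7 rose on few reads (adjusted p = 0.0403 and 0.032). Gstm5 did not pass (adjusted p = 0.748).

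Mgst1, a membrane-bound transferase that also has peroxidase activity (ENSMUSG00000008540, chromosome 6, 138140316 to 138156755, plus strand), stood at 121, 107 and 109 CPM with DMSO. With the inhibitor it was at 164, 161 and 156 CPM, above every DMSO library. The rise was 1.43-fold (log2 fold change 0.52, SE 0.055, adjusted p = 0.000123). The ratio of Mgst1 to Gstm1 per kb was 0.51, 0.40 and 0.40 in control libraries and 0.31, 0.35 and 0.31 under the inhibitor. These did not overlap, and the mean log2 ratio differed by −0.43 (exact permutation p = 0.1, the smallest possible, adjusted p = 0.2). With that floor the test could not pass at 0.05, so it does not decide whether this ratio differed.

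Gsto1, an omega-class enzyme that reduces mixed disulfides (ENSMUSG00000025068, chromosome 19, 47854970 to 47864790, plus strand), was the steadiest of the 10. It stood at 73.6, 74.9 and 75.1 CPM with DMSO and 74.2, 70.9 and 71.2 CPM with the inhibitor. The groups overlapped through inhibitor replicate 1, and the log2 fold change was −0.05 (SE 0.043, adjusted p = 0.38). Scaled by library totals alone, its sign turned to 0.06 (adjusted p = 0.257).

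All 25 transferase genes named Gst or Mgst were also added up per kb of exon, as a description. The sum was 289.8, 304 and 305 CPM per kb with DMSO and 459, 429.6 and 451 CPM per kb with the inhibitor. Gstm1 made up 40.8% to 44.7% of the sum with DMSO and 53.9% to 56.5% with the inhibitor. The share of Gsto1 went from 12.2% to 12.6% down to 7.81% to 8.16%, while its own level did not pass the test. Mgst1 kept a similar share, 17.4% to 20.7% with DMSO and 17.2% to 18.6% with the inhibitor.

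**Figure D4:**
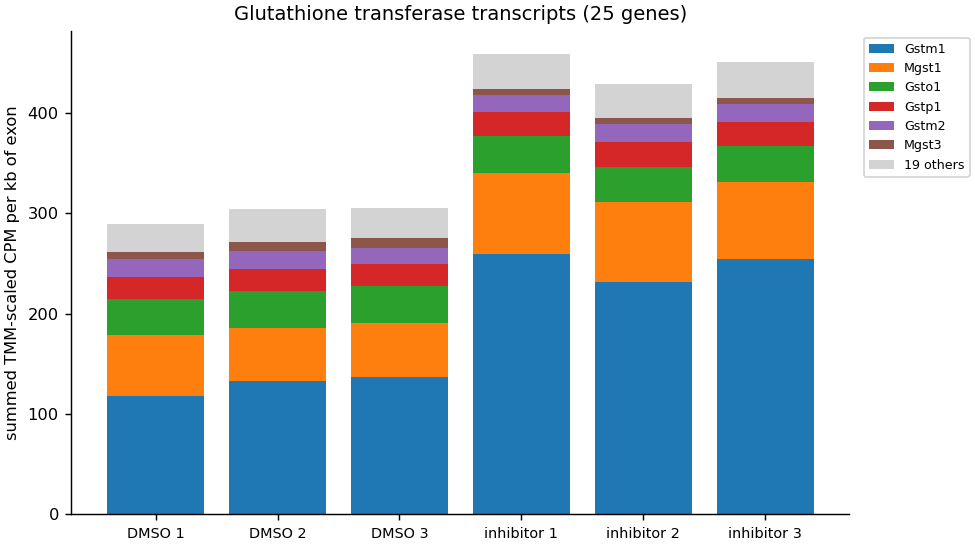
Summed TMM-scaled CPM per kb of exon of 25 glutathione transferase genes in each library (vertical axis), split by gene; grey joins the 19 genes not shown singly. The sums lie between 289.8 and 305 with DMSO and between 429.6 and 459 with the inhibitor, and the Gstm1 segment grows most.

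Levels of different genes were compared per kb of exon, using the length of all annotated exons of a gene. With DMSO, Gpx1 (134.5 ± 90.2 CPM per kb, SD, n = 3) and Gstm1 (129 ± 9.64) had the highest means and overlapped. The place of Gpx1 rested on DMSO replicate 2: it stood at 78.9, 239 and 86.0 CPM per kb, and its mean without that library, computed after the values were seen, was 82.5 CPM per kb, below the mean of Gsr. Gsr (87.3 ± 4.61), Slc7a11 (69.7 ± 4.52), Mgst1 (55.7 ± 3.78), Gpx4 (44.4 ± 3.72) and Gsto1 (36.8 ± 0.41) followed. None of these 5 overlapped the next, while Gpx1 overlapped Gsr. Gclm (19.1 ± 1.66) and Gclc (16.7 ± 0.69) overlapped, and Gss was lowest (4.84 ± 0.42). With the inhibitor the order was the same except that Gstm1 (248 ± 14.8) had the higher mean than Gpx1 (206 ± 122), with overlap. Without inhibitor replicate 1 the mean of Gpx1 was 135, above that of Gsr. Gclm (33.3 ± 5.41) then reached the range of Gsto1 (35.6 ± 0.90) and no longer overlapped Gclc (26.1 ± 1.3). Slc7a11 leads by counts but not per kb because its annotated exons add up to 13922 bases. The order per kb depends on these annotated lengths, which join the exons of all transcripts of a gene. Which transcripts the cells made was not examined.

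A wider list of 66 further genes of glutathione supply, use, breakdown and transport was examined in the same fit, 56 of which could be tested. Of these 56, 14 rose and 13 fell (23.2%), shares near those of all genes, and their median log2 fold change was 0.01. With library totals alone as the scale, which raised the median of all genes by 0.11, 16 rose and 7 fell. Stromal markers, 9 of 10 lower, moved in the same libraries.

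Of 8 tested genes of precursor supply 3 rose (37.5%) and 4 fell (50%), beside 24.9% and 26.5% of all tested genes. The most abundant, Slc3a2, encodes the heavy chain that pairs with the SLC7A11 protein. Its mean level was 453 ± 43.1 CPM with DMSO (SD, n = 3) and 677 ± 15.3 CPM with the inhibitor, a rise of 0.58 on the log2 scale (edgeR adjusted p = 0.000181). The amino acid transporter Slc38a2 rose too (0.22 on the log2 scale). The neutral amino acid transporters Slc1a5 (−0.22) and Slc1a4 (−0.31), and Cth (−0.49) and Ahcy (−0.60), enzymes on the route from methionine to cysteine, fell.

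In the whole wider list 3 genes changed by at least 1 on the log2 scale and reached 5 CPM in either group. Gsta3, an alpha-class transferase whose promoter stretch is shown above, rose 4.24-fold, from 2.08 ± 0.32 to 8.81 ± 0.64 CPM, with 39, 40 and 54 counts against 214, 217 and 229 (adjusted p = 1.23e-05). Abcc3, an exporter of glutathione and glucuronide conjugates, rose 3.71-fold, from 20.4 ± 1.58 to 75.8 ± 4.64 CPM (adjusted p = 8.48e-07). Dpep2, a membrane dipeptidase, fell 2.60-fold, from 111 ± 9.70 to 42.6 ± 1.91 CPM (adjusted p = 2.68e-06), with exons that overlap a second gene model of the same name.

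Of 16 tested genes listed as cytosolic and mitochondrial transferases 5 rose (31.25%) and 1 (Gstcd) fell (6.25%). Among all tested genes 24.9% rose and 26.5% fell. Among the rises, those of Gstm3 and Gstm7 rested on few reads, at most 14 and 26 counts in any library. Hpgds, the prostaglandin D synthase of this family, had the highest CPM of these genes, not corrected for length. It was at 39.9 ± 2.13 and 37.9 ± 2.41 CPM and did not pass (adjusted p = 0.409). Per kb of exon, Hpgds (6.20 and 5.90 CPM per kb) was below Gstp1 (21.8 and 24.3). Gstp1 rose by 0.16 on the log2 scale (adjusted p = 0.0378). Of the 3 other peroxidases tested, Gpx7 and Gpx8, which reside in the endoplasmic reticulum, fell by 0.39 and 0.40 on the log2 scale, and Gpx3 did not pass. Of 4 membrane transferases and relatives, Mgst3 (−0.56) and the prostaglandin E synthase Ptges fell. Ptges, the most abundant of them, went from 284 ± 38.0 to 212 ± 25.6 CPM (adjusted p = 0.0136).

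Of 8 tested exporters and mitochondrial carriers, Abcc1, Abcc3 and Abcc4 rose (37.5%) and the mitochondrial carrier Slc25a10 fell (12.5%). Shares among all tested genes were 24.9% higher and 26.5% lower. Abcc1, which exports oxidised glutathione and conjugates, went from 458 ± 20.6 to 592 ± 10.2 CPM (log2 fold change 0.37, adjusted p = 0.000248). Of 10 breakdown genes 2 rose and 2 fell (20% each), and their median log2 fold change was −0.04 with a mean of 0.01. Anpep, an aminopeptidase and the most abundant of them, stood at 1182 ± 7.44 and 1117 ± 3.36 CPM and did not pass (adjusted p = 0.0897). A sub-list of 7 genes held glutaredoxins, glyoxalases and Esd, an S-formylglutathione hydrolase that is neither. Esd rose from 374 ± 16.6 to 494 ± 8.42 CPM (14.3% of the 7), Glrx3 fell by 0.25 on the log2 scale (14.3%), and 5 did not pass. The glyoxalase genes Glo1 (edgeR adjusted p = 0.878) and Hagh (adjusted p = 0.987) were among these 5.

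**Figure D5:**
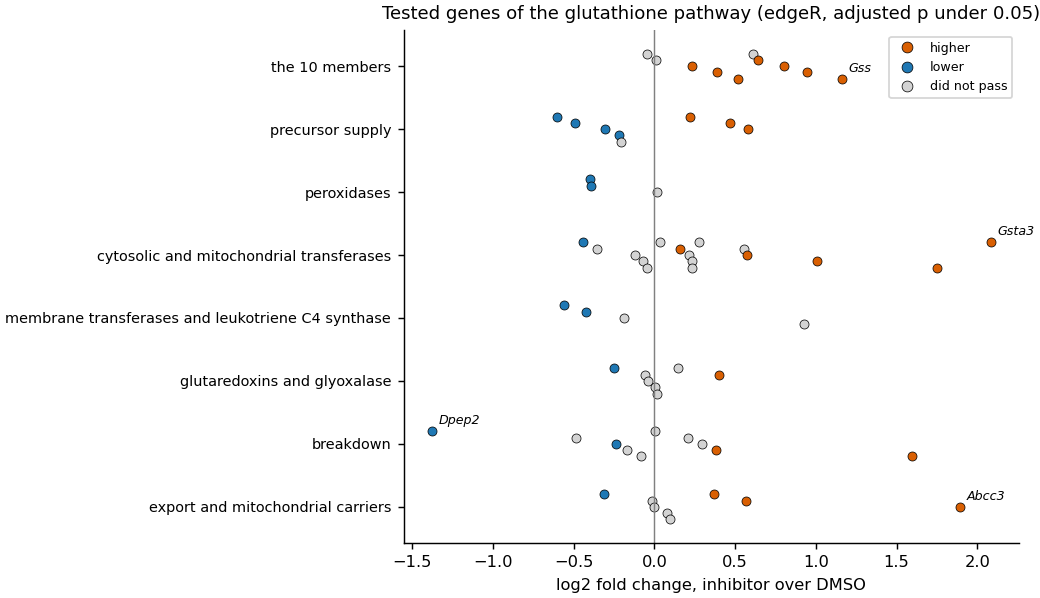
Log2 fold change, inhibitor over DMSO (horizontal axis), of the 10 glutathione genes and of 56 tested genes of the wider pathway list, by function; orange points were called higher, blue lower and grey neither. The top line has 7 higher and no lower genes, and the 7 lines under it together hold 14 higher and 13 lower. All lines hold genes chosen with earlier results of these data known.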

How the data were processed

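Libraries were made after mRNA capture on beads, per the labels' protocols. The authors deposited 1 table of raw counts per Ensembl gene for 6 libraries. The submitters' processing notes list mm10, StringTie 1.3.0, HISAT2 and edgeR, without roles. For the counter, annotation release, strand and shared reads, the entry is: not given in the sources used here. Symbols were matched for 34267 of 34745 identifiers; coordinates and exon lengths are from GENCODE M21 (mm10, counted from 1).

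Counts were tested in R 4.3.3 with edgeR 4.0.16 (quasi-likelihood test, TMM scaling, filterByExpr with a minimum count of 10, pretreatment as the only factor), after a test on simulated data. The tested genes held 99.9% of the counts. Each SE was computed as the size of the log2 fold change divided by the root of its F statistic. A count of 0 allows 3 counts, 0.116 to 0.166 CPM, covering counting error only. No label ties replicates to different mice or dishes; the p-values therefore reflect only library-to-library spread, possibly technical. No library was a copy of another (chi-square per degree of freedom 9.26 to 14.4 within groups).

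The members and lists were chosen with earlier results of these data known. Named from the wider list were genes called at a log2 fold change of at least 1 in size and 5 CPM. The most abundant tested gene of each sub-list, by CPM without regard to length, was named too. Others named from that list were chosen after their values were seen. Alternatives were DESeq2 1.42.0, its size factors, library totals, no filter, a mean of at least 5 CPM, an adjusted p under 0.01, a replicate block and leaving out each library. Of the listed genes, 2 are not reported here by name.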

Additional observations from a re-analysis of the deposited data

How the results depend on the processing

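The 7 glutathione genes that rose passed under each of 12 alternatives, with log2 fold changes of 1.06 to 1.27 for Gss, 0.88 to 1.05 for Gstm1, 0.67 to 0.91 for Gclm, 0.61 to 0.75 for Gclc, 0.48 to 0.62 for Mgst1, 0.33 to 0.50 for Slc7a11 and 0.18 to 0.34 for Gsr. Leaving out 1 library at a time gave 7 to 8 higher genes of the 10, the eighth being Gpx1, whose log2 fold change then ran from 0.0095 to 1.31. That of Gpx4 ran from −0.064 to 0.053 and turned negative without DMSO replicate 1 (−0.064) or inhibitor replicate 1 (−0.0026). Gsto1 turned positive (0.061) with library totals. In the wider list 14 rose and 13 fell; at an adjusted p under 0.01 these were 9 and 7, and with library totals 16 and 7, a scale that raised the share of higher among all called genes from 48.4% to 63.2%. The replicate block left the 7 calls in place; same-numbered libraries did not deviate together (correlations −0.0244, −0.00933 and 0.0243), so the numbers were not taken as pairs. With the block, 12 genes of the wider list rose and 12 fell. Leaving out 1 library at a time gave 10 to 11 higher and 10 to 15 lower genes of that list. The causes of these changes were not tested. Depth did not limit the 10 genes, whose lowest count was 501, but 10 of the 66 further genes had too few counts to be tested.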
